A study of Mus musculus with 12 samples.

Results

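Transcripts of the NF-kB subunits and of the IkB proteins that inhibit them were followed in macrophages from the mammary ducts of mice. The 10 genes were picked out of 27179 in the count table by symbol: the 5 subunit genes Nfkb1, Nfkb2, Rela, Relb and Rel, and the 5 inhibitor genes Nfkbia, Nfkbib, Nfkbie, Nfkbid and Nfkbiz. They were chosen by their levels across the 4 stages, which were known from an earlier reading of these data, so the levels, differences and calls of these 10 genes are given as a description and support nothing. The mice were females of the C57BL/6 strain, with no transgene or treatment in the labels, and were virgin, at day 16.5 of pregnancy, lactating, or 1 month past weaning. There were 3 libraries for each stage, 12 in all, which the labels call biological replicates. The sources used here do not say whether a library came from 1 mouse or from pooled mice, or how macrophages were gated. The p-values measure the spread between these libraries.

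NF-kB is a family of transcription factors that bind DNA as dimers of the subunit proteins and switch on genes of inflammation and cell survival. In resting cells most dimers are held in the cytoplasm by IkB proteins, and receptors for microbial products and cytokines free them through the IKK kinases, which mark IkB proteins for destruction. Several of the subunit and inhibitor genes are themselves NF-kB targets, so the system feeds back on itself, and in macrophages it drives much of the response to injury and infection.

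All 10 transcripts had their lowest stage mean in pregnancy, against 18.9% of the 12672 genes tested. The stage mean was highest in lactation for 8 of the 10, against 22.1% of the genes tested, and in virgin glands for Nfkbia and Nfkbiz. The range between the lowest and highest stage mean, in log2 CPM, was 2.69 for Nfkb1, 2.35 for Nfkbib, 1.90 for Nfkbiz, 1.69 for Nfkbid and 1.66 for Rel, and 0.92 to 1.37 for the other five. CPM are counts scaled to a common library size.

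Library totals ran from 6926273 to 21204704 counts, and the 10 genes had between 283 (Nfkb1) and 36048 (Nfkbia) counts in a library. All 15 macrophage marker genes were detected at every stage, while neutrophil markers took at most 0.000246% of the counts of any library and B cell markers at most 0.00390%. Lactating replicate 3 stood apart: milk protein and secretory cell genes took 7.33% of its counts, against at most 1.44% in any other library, macrophage markers took 4.61%, against 12.1% in Lactating replicate 1 and 11.1% in Lactating replicate 2, and it correlated least with its own stage (mean r = 0.713). The nuclear RNA Malat1 stood at 40880 unscaled CPM in it, against 5362 to 13180 in the other libraries, and it had the fewest genes detected (10178, against 11295 to 13790). In these bulk samples fewer cells of a type and less RNA per cell cannot be told apart. Call counts and correlations below are given with it and, where they moved, without it.

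Compared per transcript length, as CPM per kilobase (RPKM), Nfkbia, which encodes the main inhibitor IkB-alpha, was far the most abundant of the 10 at every stage, with a mean level of 1325 RPKM over the 12 libraries. Nfkbiz, which encodes the nuclear protein IkB-zeta, followed with a mean level of 198 RPKM. Nfkbid averaged 111, Nfkbib 106 and Nfkbie 62.3 RPKM. The subunits lay lower, with mean levels of 57.0 RPKM for Rel, 48.8 for Rela, 40.2 for Nfkb2, 30.6 for Relb and 24.4 for Nfkb1. Nfkb1 was the lowest of the 10 in virgin, pregnant and post-weaning libraries, but in lactation its mean level of 53.5 ± 16.5 RPKM was above the 49.2 ± 10.3 RPKM of Relb (SD, n = 3), a difference within their spread.

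Apart from the stage levels, the promoters of the members were read for the sequence that NF-kB dimers bind. RefSeq promoter windows of GRCm38.p6, 250 bases before to 50 after a transcript start, matched 7 of the 10 genes with 11 windows, and Nfkb1, Relb and Nfkbiz are named only. A loose motif, GGG, any 5 bases and CC on either strand, lay in 10 of the 11 windows and in 50.8% of all 32851 windows. A stricter motif, GGG, any 3 bases and TTCC on either strand, each match of which is also a match of the loose one, lay in 7 of the 11 windows and in 5.56% of all windows. The 7 were all 3 windows of Nfkb2, 2 of which overlap and share a match, 1 of 3 windows of Nfkbid, and the single windows of Rel, Nfkbia and Nfkbie. The windows of Rela and Nfkbib held none. A match is a description of the letters and not evidence of binding. The 250 bases before the start are shown for 3 genes whose stage patterns differ. Nfkbia had its highest stage mean in virgin libraries, and Nfkbie moved least. Rel had only 2 lactating libraries above the virgin and post-weaning ones. Capitals mark the match of the stricter motif, which begins at position -29 from the start in Nfkbia, -91 in Rel and -106 in Nfkbie.
Nfkbia, chr12:55492648-55492897, minus strand: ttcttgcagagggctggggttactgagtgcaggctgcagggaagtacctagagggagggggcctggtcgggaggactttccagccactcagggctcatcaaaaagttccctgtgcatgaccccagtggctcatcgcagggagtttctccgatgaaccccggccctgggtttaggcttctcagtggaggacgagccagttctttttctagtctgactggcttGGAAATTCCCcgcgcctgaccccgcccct
Rel, chr11:23770970-23771219, minus strand: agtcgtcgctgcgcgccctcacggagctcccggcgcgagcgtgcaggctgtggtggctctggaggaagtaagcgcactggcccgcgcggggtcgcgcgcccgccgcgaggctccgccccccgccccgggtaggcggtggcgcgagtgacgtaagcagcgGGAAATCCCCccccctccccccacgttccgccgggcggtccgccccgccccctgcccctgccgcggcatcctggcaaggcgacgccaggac
Nfkbie, chr17:45555450-45555699, plus strand: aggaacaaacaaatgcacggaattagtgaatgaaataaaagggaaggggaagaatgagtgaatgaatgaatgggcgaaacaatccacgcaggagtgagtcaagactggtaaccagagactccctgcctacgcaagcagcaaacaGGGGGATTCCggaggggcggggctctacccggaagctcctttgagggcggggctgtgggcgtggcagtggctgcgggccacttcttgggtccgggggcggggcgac

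Among the subunits, Nfkb1 encodes p105, the precursor of the DNA-binding subunit p50. The gene (Entrez gene 18033) lies on chromosome 3, 135584655 to 135691969, and its span overlaps that of Gm46827. Whether their reads mix was not tested: exons were not compared, and the sources used here do not give the strand setting of the counting. Nfkb1 had 57.3, 106 and 79.8 CPM in virgin, 31.5, 32.9 and 34.5 CPM in pregnant, 211, 292 and 157 CPM in lactating, and 66.9, 45.1 and 90.2 CPM in post-weaning libraries. Every lactating library was above every other library, and every pregnant one below every other. Virgin and post-weaning libraries overlapped. The pregnant libraries were also the tightest, with a coefficient of variation of 4.65%, against 29.9% to 33.5% at the other stages.

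Nfkb2 encodes p100, the precursor of p52 in the alternative branch of the pathway. It had 69.9, 122 and 148 CPM in virgin, 96.5, 73.2 and 75.9 CPM in pregnant, 172, 270.4 and 200.3 CPM in lactating, and 94.3, 132 and 134 CPM in post-weaning libraries. The lactating libraries stood above all others, and the other stages overlapped one another. Nfkb2 shares its locus on chromosome 19 (46300994 to 46312400) with 4833438C02Rik and Psd.

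Rela encodes p65, the activating partner of p50. Rela had 123, 119 and 157 CPM in virgin, 67.6, 74.9 and 66.0 CPM in pregnant, 138, 181 and 215 CPM in lactating, and 164, 158 and 123 CPM in post-weaning libraries. The pregnant libraries lay below all others, while virgin, lactating and post-weaning libraries overlapped.

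Relb encodes the partner of p52. Relb had 57.2, 71.6 and 54.6 CPM in virgin, 44.8, 36 and 47.9 CPM in pregnant, 82.5, 125 and 118 CPM in lactating, and 64.4, 51.2 and 55.7 CPM in post-weaning libraries. Its lactating libraries lay above and its pregnant libraries below all others, and virgin and post-weaning libraries overlapped.

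Rel encodes c-Rel, a subunit prominent in blood cells. Rel had 151, 174 and 181 CPM in virgin, 57.8, 68.1 and 63.4 CPM in pregnant, 295, 256 and 105 CPM in lactating, and 149.8, 142 and 125 CPM in post-weaning libraries. The first 2 lactating libraries held the highest levels of all, but Lactating replicate 3 lay below every virgin and post-weaning library. The post-weaning libraries lay just below the virgin ones, and the pregnant libraries below all others. In Lactating replicate 3 Rela had its highest level of the 12 libraries, so the same library was low for one activating subunit and high for another.

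**Figure D1:**
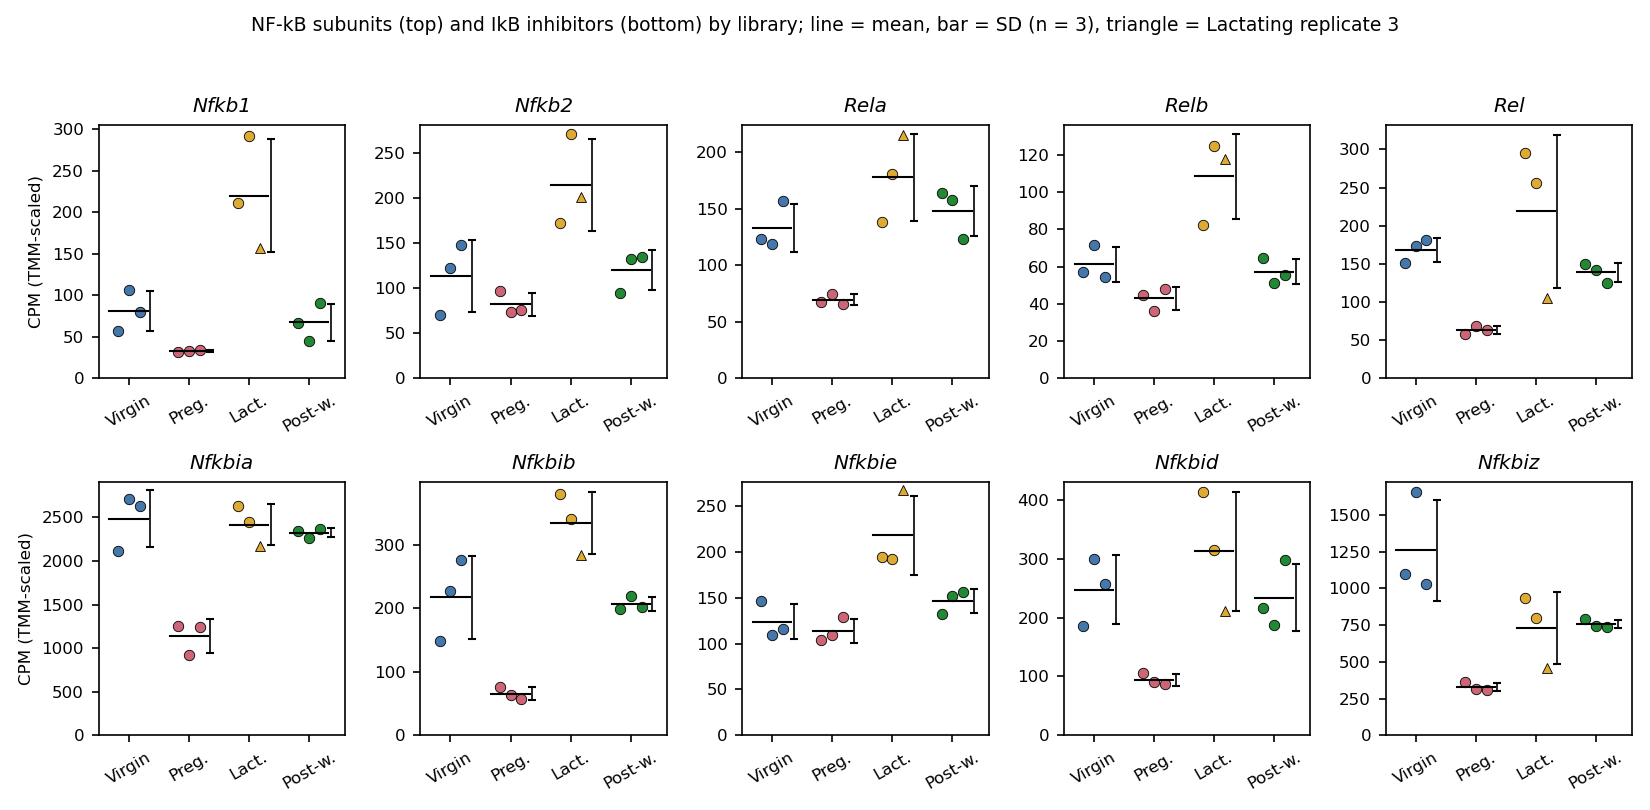
Level of each of the 10 genes in CPM (y axis, linear, from 0) in the 3 libraries of each stage (x axis), with subunits in the top row and inhibitors in the bottom row; lines are means, bars are SD (n = 3), and the triangle is Lactating replicate 3. All 10 genes have their lowest mean in pregnancy, and Rel, Nfkbid and Nfkbiz have the triangle well below the other lactating libraries.

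Of the classical inhibitors, which hold dimers in the cytoplasm, Nfkbia (Entrez gene 18035; chromosome 12, 55489409 to 55492647) is also a rapid NF-kB target. Nfkbia had 2112, 2710 and 2635 CPM in virgin, 1259, 919.8 and 1248 CPM in pregnant, 2630, 2448 and 2166 CPM in lactating, and 2347, 2263 and 2366 CPM in post-weaning libraries. The pregnant libraries lay below all others, while the other 3 stages overlapped. The mean of Nfkbia was no higher in lactation than in virgin glands, whereas the means of all 5 subunits were.

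Nfkbib encodes IkB-beta. Nfkbib had 148, 228 and 277 CPM in virgin, 76.1, 63.9 and 56.6 CPM in pregnant, 380, 340.3 and 284 CPM in lactating, and 199.6, 219.6 and 202 CPM in post-weaning libraries. Lactating libraries were above and pregnant libraries below all others, with virgin and post-weaning libraries overlapping. Nfkbib overlaps Ccer2 on chromosome 7 (28758251 to 28766644), so that part of its count could belong to that gene.

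Nfkbie encodes IkB-epsilon. Nfkbie had 146, 109.8 and 116 CPM in virgin, 104, 109.8 and 129 CPM in pregnant, 195, 192 and 268 CPM in lactating, and 132, 152 and 156 CPM in post-weaning libraries. It was raised in the lactating libraries over all others, but it alone of the inhibitors had pregnant libraries that overlapped the virgin ones.

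The atypical inhibitors act in the nucleus. Nfkbid encodes IkB-NS, and had 185, 300.4 and 257 CPM in virgin, 105, 90.6 and 86.4 CPM in pregnant, 413, 315 and 211 CPM in lactating, and 216, 188 and 298 CPM in post-weaning libraries. The pregnant libraries lay below all others, and the other 3 stages overlapped.

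Nfkbiz (Entrez gene 80859; chromosome 16, 55811375 to 55838954) encodes IkB-zeta, a cofactor that NF-kB needs to switch on some inflammatory genes. Nfkbiz had 1095, 1657 and 1030 CPM in virgin, 363, 318 and 309.8 CPM in pregnant, 934, 796 and 459 CPM in lactating, and 791, 745 and 736 CPM in post-weaning libraries. It was the sole member with all virgin libraries above all others. Lactating and post-weaning libraries overlapped, and the pregnant libraries were lowest.

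The summed transcripts of the inhibitor and the subunit genes are set side by side here by stage. The inhibitor sum includes the cofactor gene Nfkbiz, and the subunit sum includes the genes of the precursors p105 and p100. The ratio of the sums, given below, is therefore a description of transcript levels and not a measure of how far NF-kB is inhibited. The 5 subunits together reached 196 ± 27.6 RPKM in virgin libraries, 103 ± 2.08 RPKM in pregnant libraries, 318 ± 52.6 RPKM in lactating libraries and 188 ± 5.51 RPKM in post-weaning libraries (SD, n = 3). The 5 inhibitors together reached 2186 ± 309.5, 936 ± 129, 2135 ± 269 and 1952 ± 55.1 RPKM in the same stage order. The subunit sum in lactation was thus above every virgin library, whereas the inhibitor sums of lactating and virgin libraries overlapped.

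The ratio of the inhibitor sum to the subunit sum was 11.2, 11.9 and 10.4 in virgin libraries, 9.80, 7.83 and 9.75 in pregnant libraries, 7.80, 5.77 and 6.79 in lactating libraries, and 10.2, 10.1 and 11 in post-weaning libraries. All lactating libraries were below all others, the nearest being Pregnant replicate 2, and Lactating replicate 3 lay between the other two. Both sums use the same library, so the ratio does not depend on how libraries are scaled. Nfkbia made up 71.8% to 77.0% of the inhibitor sum in the stage means. Nfkb1 made up 16.5 ± 2.45% of the subunit sum in lactation, against 9.92 ± 2.16% in virgin, 7.82 ± 0.473% in pregnant and 8.76 ± 3.09% in post-weaning libraries, without overlap. Nfkbiz made up 14.8 ± 2.83% of the inhibitor sum in virgin libraries and 8.65% to 9.99% in the other stage means, also without overlap. Nfkbib made up 8.04 ± 0.152% of the inhibitor sum in lactation and 3.64% to 5.46% elsewhere.

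**Figure D2:**
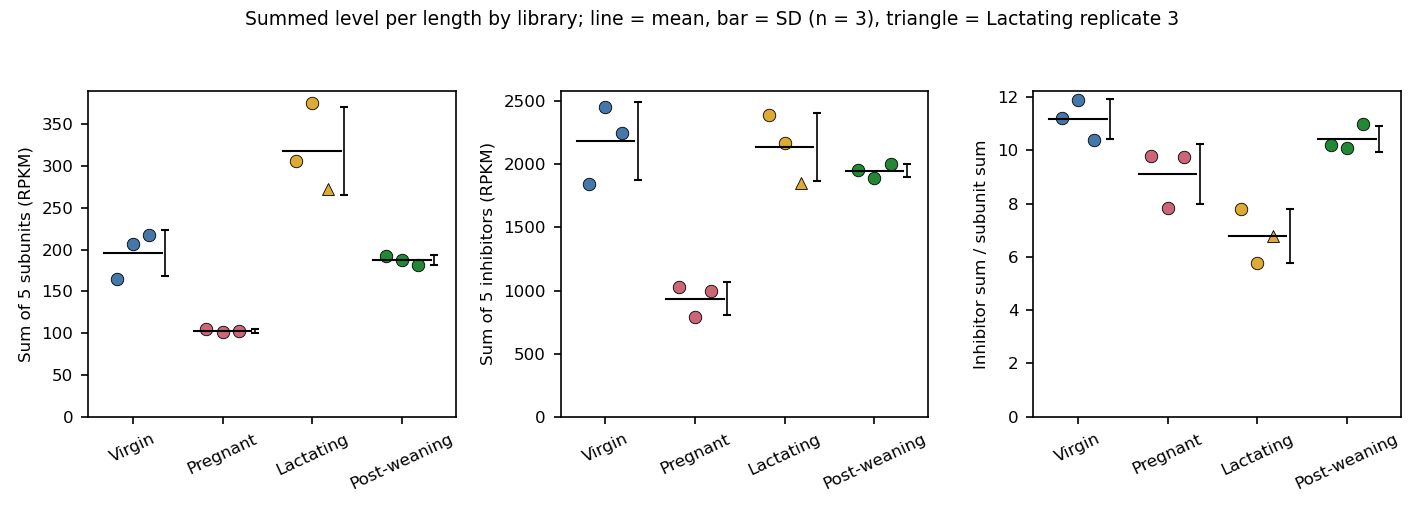
Summed level of the 5 subunits (left) and the 5 inhibitors (middle) in RPKM, and their ratio (right), each on a linear y axis from 0, by library and stage (x axis); lines are means, bars are SD (n = 3), and the triangle is Lactating replicate 3. The ratio lies between 5.77 and 7.80 in the lactating libraries, below every other library.

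Over the 12 libraries the closest pair was Nfkbib and Nfkbid (Pearson r = 0.94 on log2 CPM, which includes the shared stage differences), and the least alike was Nfkbie and Nfkbiz (r = 0.04, and 0.28 without Lactating replicate 3). After each stage mean was subtracted, r was -0.74 between Nfkbie and Nfkbib, and -0.73 without Lactating replicate 3. Other within-stage values rested in part on that library: r was 0.78 between Rel and Nfkbiz but 0.16 without it, -0.78 between Nfkbie and Nfkbiz but -0.54 without it, and -0.75 between Nfkbie and Rel but -0.47 without it. These values are a description over 12 libraries that share depth and Lactating replicate 3. Of the genes with a symbol and a mean log2 CPM of at least 3 (7166 candidates), the most alike in pattern over the 12 libraries were Dot1l (r = 0.971), Fxyd5 (0.970) and Ccl9 (0.966) for Nfkb1. For Nfkbib they were Itga5, Apbb3 and Map2k3 (r = 0.984, 0.984 and 0.983), and for Nfkbiz they were Mcl1, Mef2c and Ifi207 (r = 0.967, 0.960 and 0.959). Mcl1 is on the immediate early and dissociation stress list described below.

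In the test for any difference between the stages, 8 of the 10 members were called at an edgeR adjusted p under 0.05, all but Nfkb2 and Nfkbie, beside 3.35% of all genes tested. The count was 2 without any one of the 3 pregnant libraries, 3 without Lactating replicate 2, 4 without Post-weaning replicate 2, 5 without Post-weaning replicate 3, and 7 without Lactating replicate 3. Since the stage levels chose the members, nothing is read from this count or from the member counts that follow. The 6 pairwise comparisons share libraries, each stage entering 3 of them, so their values are set side by side and not compared.

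In pregnant against virgin mice all 10 members had a negative log2 fold change, with a median of -1.21 beside 0.03 over all genes tested. Of the 10, 4 were called lower, all of them inhibitors, beside 0.876% of all genes: Nfkbiz (log2 fold change -1.93 ± 0.27, SE), Nfkbib (-1.73 ± 0.24), Nfkbid (-1.40 ± 0.28) and Nfkbia (-1.12 ± 0.19). In mean CPM Nfkbiz stood at 330.3 ± 28.5 in pregnant and 1260 ± 345 in virgin libraries. The subunits Rel (-1.42 ± 0.31), Nfkb1 (-1.29 ± 0.32) and Rela (-0.94 ± 0.22) missed the threshold, as did Relb (-0.51 ± 0.25), Nfkb2 (-0.47 ± 0.29) and Nfkbie (-0.12 ± 0.20). The pregnant libraries lay below all virgin libraries for 8 of the 10 members, beside 10.7% of all genes.

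That count of 4 depended on single libraries. It was 2, Nfkbib and Nfkbiz, without any one of Virgin replicates 2 and 3 and Pregnant replicates 1, 2 and 3, and 7 without Lactating replicate 3, beside 2.09% of all genes, when Rel, Nfkb1 and Rela were called too. Lactating replicate 3 is in neither stage but shares the estimate of the spread.

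In the same comparison, 0 of the 79 tested genes of 83 on the other pathway lists were higher and 6 fell. Of all genes tested, 0.876% were called lower. The 6 were 5 of 27 NF-kB target genes and 1 of 12 other negative regulators. None of 24 receptors and adaptors, 11 IKK and upstream kinases or 5 genes of IkB degradation was called. These lists too were chosen with earlier results of these data known, so their counts and calls are given as a description. When Lactating replicate 3 was left out, the receptor genes Tlr2 (-1.03, edgeR adjusted p = 0.00505) and Cd14 (-1.08, adjusted p = 0.00625) and the kinase gene Map3k8 (-1.30, adjusted p = 0.0387), named after their values were seen, fell too. Gadd45b, a stress response gene, fell to 127 ± 23.8 CPM in pregnant libraries, against 455 ± 82.6 CPM in virgin libraries (log2 fold change -1.84 ± 0.23, edgeR adjusted p = 0.00681, n = 3 each). Cd83, which encodes an activation marker of antigen-presenting cells, fell to 768 ± 167 CPM in pregnant libraries, against 3555 ± 399.7 CPM in virgin libraries (-2.21 ± 0.39, adjusted p = 0.0188). Birc3, which encodes the survival factor cIAP2, fell by 1.23 ± 0.22 on the log2 scale (adjusted p = 0.0201), and Zc3h12a, which encodes the RNase Regnase-1 that destroys inflammatory transcripts, fell by 0.88 ± 0.18 (adjusted p = 0.0374). The other two targets, Ebi3 (-2.13 ± 0.44, adjusted p = 0.0403) and Cxcl2 (-1.35 ± 0.29, adjusted p = 0.0466), are named after their values were seen. The pathway count was 1 to 3 without any one library other than Lactating replicate 3. Without that library it was 20 of 80, all lower, beside 2.09% of all genes.

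Genes that respond within minutes to handling and stress moved with these values. The immediate early and dissociation stress list took 0.796 ± 0.0959% of the counts in pregnant and 2.29 ± 0.551% in virgin libraries, and 13 of its 30 genes fell, among them Btg2 (-2.12 ± 0.23, edgeR adjusted p = 0.00507), Klf6 (-1.78 ± 0.20, adjusted p = 0.00507) and Ppp1r15a (-2.27 ± 0.27, adjusted p = 0.00668). Those 13 stood beside 0.876% of all genes called lower. Without Lactating replicate 3 the count was 18, all lower, beside 2.09% of all genes. Over the 12 libraries the mean log2 CPM of this list correlated with Nfkbia at r = 0.92, Nfkbiz at 0.88, Nfkbid at 0.81, Nfkbib at 0.80, Rel at 0.74 and Rela at 0.72, and with Nfkb1 at 0.47, Nfkb2 at 0.38, Relb at 0.35 and Nfkbie at 0.15. These values were 0.22 to 0.92 without Lactating replicate 3, with Nfkbie still the lowest and Nfkbia the highest. Markers of other cell types moved as well. Milk and secretory cell genes took 0.170% to 1.44% of the counts in pregnant libraries and at most 0.00877% in virgin libraries. In virgin libraries 6 of the 10 were at 0. Of the 10, 4 were called higher in pregnant libraries, beside 56 of all 12672 genes tested. Fibroblast genes took 0.000247% to 0.00075% in pregnant and 0.00238% to 0.0389% in virgin libraries, and none of the 5 tested was called. The part of cell handling or of other cells in the members' levels was not tested.

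In lactating against pregnant mice all 10 members were called higher, beside 2.65% of all genes, and the libraries of the 2 stages did not overlap for any of the 10, beside 9.5% of all genes. The median log2 fold change was 1.37 over the members and -0.14 over all genes tested. Nfkb1 averaged 220.1 ± 67.9 CPM in lactating and 33.0 ± 1.53 CPM in pregnant libraries (log2 fold change 2.74 ± 0.34, a fold of 6.67). Nfkbib averaged 335 ± 48.4 CPM in lactating and 65.5 ± 9.81 CPM in pregnant libraries (2.35 ± 0.25, a fold of 5.11). The others ranged from 1.79 ± 0.32 for Rel and 1.74 ± 0.29 for Nfkbid to 1.08 ± 0.19 for Nfkbia and 0.93 ± 0.21 for Nfkbie.

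Of these 10 calls, those of Nfkb1, Rela, Nfkbib and Nfkbid stood without any one of the 6 libraries compared. In the fit to these 6 libraries alone, only the calls of Nfkb1, Nfkbib and Nfkbid remained, and Rela was lost (edgeR adjusted p = 0.052). With single libraries left out of the main fit, the count was 5 without Pregnant replicate 1 or Pregnant replicate 2. Without Lactating replicate 3 it was 9, beside 3.31% of all genes, and Nfkbie was lost, with a log2 fold change of 0.71. With no scaling factor on the library totals 7 of the 10 were called higher, and the median over all genes tested moved to -0.43.

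In lactating against pregnant mice 20 of the 79 other pathway genes rose and none fell, beside the 2.65% of all genes called higher. In the fit to these 6 libraries alone 7 rose. These counts too are a description, since the lists were chosen with earlier results of these data known. The 20 were 13 of 27 target genes, 4 of 24 receptors and adaptors and 3 of 12 other negative regulators. No gene of the IKK or IkB degradation lists passed. Fbxw11 of the IkB degradation list, named after its values were seen, did rise once Lactating replicate 3 was left out, by 1.54 (edgeR adjusted p = 0.0102). Cxcl3, a neutrophil-attracting chemokine gene, rose to 499 ± 43.7 CPM in lactating libraries, against 15.0 ± 5.07 CPM in pregnant libraries (log2 fold change 5.05 ± 0.49, edgeR adjusted p = 0.000295, n = 3 each). Gadd45b rose to 665 ± 154 CPM in lactating libraries, against 127 ± 23.8 CPM in pregnant libraries (2.39 ± 0.23, adjusted p = 0.000295), and Ebi3, which encodes a subunit of the cytokine IL-27, rose by 3.69 ± 0.47 on the log2 scale (adjusted p = 0.00127). Among receptors and adaptors, Malt1, which encodes the protease of the CARD-BCL10-MALT1 complex, rose by 1.49 ± 0.22 (adjusted p = 0.00347), the TRIF adaptor gene Ticam1 by 2.91 ± 0.49 (adjusted p = 0.00696) and the kinase gene Irak2 by 1.46 ± 0.27 (adjusted p = 0.0105). Cd14, the lipopolysaccharide co-receptor gene and the fourth of them, named after its values were seen, rose by 2.32 ± 0.46 (adjusted p = 0.0162).

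The negative regulators that rose were Zc3h12a (1.60 ± 0.18, edgeR adjusted p = 0.000717), Tnip2 (1.61 ± 0.35, adjusted p = 0.026), whose product binds A20, and Tnfaip3 (1.04 ± 0.26, adjusted p = 0.0482), which encodes A20 itself. The difference of Tnip2 was 0.98 without Lactating replicate 3, still called. Without Lactating replicate 3 the pathway count was 33 of 80, beside 3.31% of all genes called higher, and 0 of the 33 were lower. On the immediate early list 10 of 30 genes rose, led by Ppp1r15a (1.81 ± 0.27, adjusted p = 0.0036), Socs3 (1.82 ± 0.28, adjusted p = 0.00445) and Dusp2 (2.24 ± 0.35, adjusted p = 0.00493), and their share of counts was 1.35 ± 0.117% in lactating and 0.796 ± 0.0959% in pregnant libraries. Those 10 genes stood beside 2.65% of all genes called higher. Without Lactating replicate 3 the list had 12 genes higher and 1 lower. The lower one was Hspa1a (-2.34, edgeR adjusted p = 0.00979), named after its values were seen. Milk and secretory cell genes took 0.170% to 7.33% of the counts in lactating and 0.170% to 1.44% in pregnant libraries, and their part in the members' levels was not tested.

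**Figure D3:**
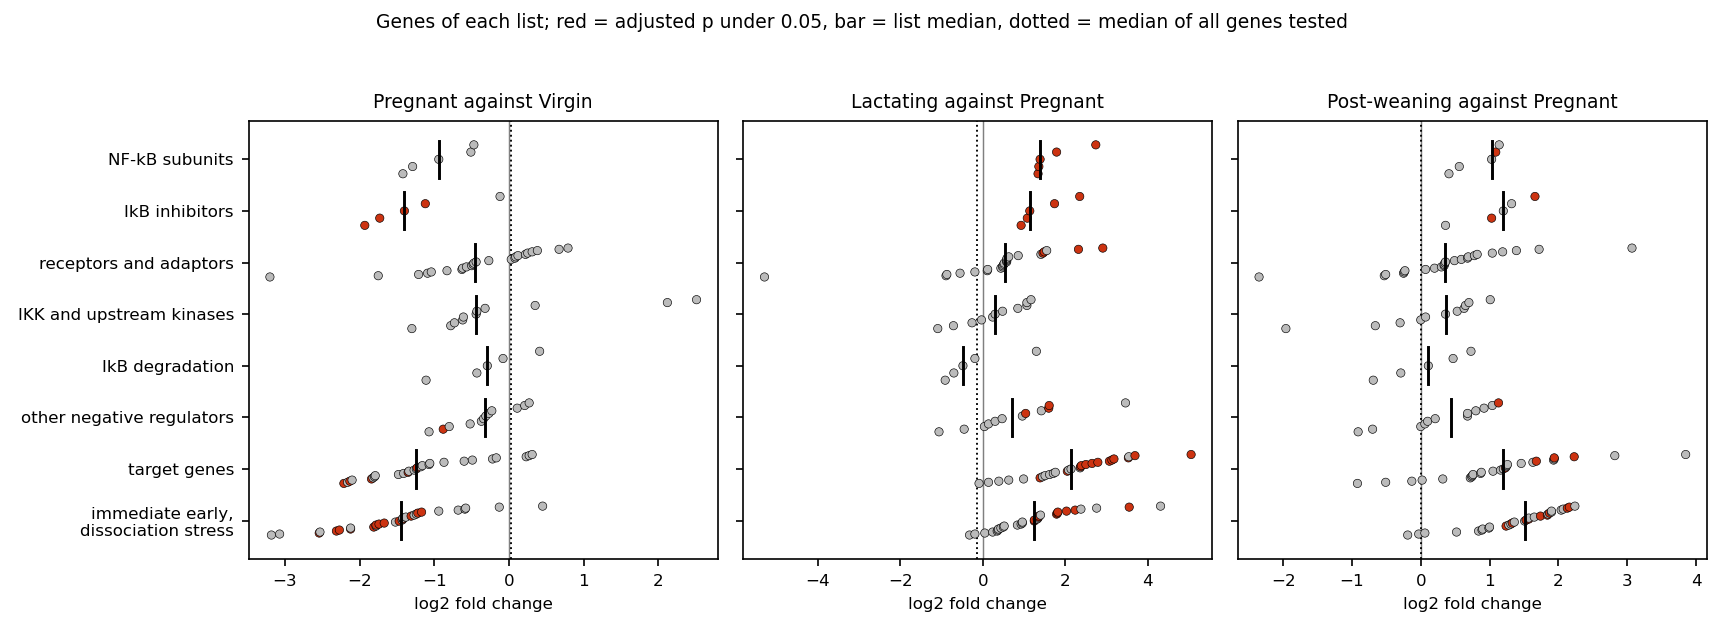
Log2 fold change (x axis) of each tested gene, by list (y axis), in pregnant against virgin, lactating against pregnant, and post-weaning against pregnant mice; red points have an edgeR adjusted p under 0.05, bars are list medians and the dotted line is the median of all genes tested. In each panel the list medians lie to one side of the dotted line, apart from IkB degradation in lactating against pregnant mice. With all 12 libraries no gene of the IKK or IkB degradation lists is red.

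In lactating against virgin mice the members split. The log2 fold change was positive for 8 of the 10 and negative for Nfkbia (-0.04 ± 0.19) and Nfkbiz (-0.79 ± 0.27), with a median of 0.52 beside -0.06 over all genes tested. Nfkb1 alone was called, higher, beside 1.04% of all genes, at 220.1 ± 67.9 CPM in lactating and 80.9 ± 24.2 CPM in virgin libraries (1.44 ± 0.32). Lactating libraries lay above all virgin libraries for Nfkb1, Nfkb2, Relb, Nfkbib and Nfkbie, beside 8% of all genes, and below them for Nfkbiz, beside 9.34% of all genes. The Nfkb1 call stood without Lactating replicate 3, beside 1.76% of all genes, and was lost without any one of the other 11 libraries. With no scaling factor on the library totals the median over all genes tested moved to -0.28, Nfkb1 lost its call and Nfkbiz was called lower (log2 fold change -1.07).

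Of the 79 other pathway genes tested, 5 rose in lactating against virgin mice and none fell, beside 1.04% of all genes called higher. Malt1 stood at 489.7 ± 148 CPM in lactating and 172 ± 16.2 CPM in virgin libraries (log2 fold change 1.51 ± 0.22, edgeR adjusted p = 0.00589, n = 3 each), and Tnfrsf1b, a receptor gene for TNF, rose by 0.98 ± 0.22 (adjusted p = 0.0471). The targets Cxcl3 (3.98 ± 0.47, adjusted p = 0.0037), Bcl2l1 (2.16 ± 0.40, adjusted p = 0.0192), which encodes the survival protein Bcl-xL, and Cxcl1 (1.61 ± 0.36, adjusted p = 0.0458) rose too. Without Lactating replicate 3 the count was 15 of 80, of which 14 were higher, beside 1.76% of all genes. It was 2 or 3 without any one of the virgin or post-weaning libraries, Pregnant replicates 1 and 2, or Lactating replicates 1 and 2. On the immediate early list 3 of 30 genes were lower: Fos (-1.62 ± 0.22, adjusted p = 0.0041), Ier5 (-0.85 ± 0.18, adjusted p = 0.0382) and Egr1 (-1.58 ± 0.34, adjusted p = 0.0389). Over all genes, 114 of 12672 were called lower. With Lactating replicate 3 left out, 6 genes of the list were lower and 1 was higher, Dusp2 (1.11, adjusted p = 0.0171), named after its values were seen. The count of all genes called lower in that fit is not given. The share of counts of that list was 1.35 ± 0.117% in lactating and 2.29 ± 0.551% in virgin libraries.

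In post-weaning against pregnant mice all 10 members again had a positive log2 fold change, with a median of 1.06 beside 0.01 over all genes tested. Called higher were 3, beside 0.576% of all genes: Nfkbib (1.66 ± 0.24), Rela (1.09 ± 0.22) and Nfkbia (1.03 ± 0.19). Nfkbib stood at 207 ± 10.9 CPM in post-weaning and 65.5 ± 9.81 CPM in pregnant libraries, a fold of 3.16. Post-weaning libraries lay above all pregnant libraries for 9 of the 10, all but Nfkb2, beside 14% of all genes. The count was 6 without Lactating replicate 3, beside 1.69% of all genes, 1 without any one of the 3 virgin libraries, Pregnant replicate 1 and Lactating replicates 1 and 2, and 0 without any one of Pregnant replicates 2 and 3 and the 3 post-weaning libraries.

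Here 5 of the 79 other pathway genes rose: Zc3h12a (1.13 ± 0.18, edgeR adjusted p = 0.0184) and the targets Gadd45b (1.68 ± 0.23, adjusted p = 0.0122), Cd83 (2.23 ± 0.39, adjusted p = 0.0266), Birc3 (1.23 ± 0.22, adjusted p = 0.03) and, named after its values were seen, Cxcl1 (1.94 ± 0.36, adjusted p = 0.0343). Cd83 had 3600 ± 401 CPM in post-weaning and 768 ± 167 CPM in pregnant libraries. The 5 calls stood beside 0.576% of all genes called higher. Without Lactating replicate 3 the pathway count was 16 of 80, beside 1.69% of all genes. It was 3 without any one of Virgin replicates 1 and 3 and Lactating replicate 2, and 2 without Pregnant replicate 1. It was 1 without Post-weaning replicate 1, and 0 without any one of Pregnant replicates 2 and 3 and Post-weaning replicates 2 and 3. Of the immediate early list 9 of 30 genes rose, led by Fos (1.74 ± 0.22, adjusted p = 0.00796), Ppp1r15a (1.87 ± 0.27, adjusted p = 0.015) and Btg2 (1.57 ± 0.23, adjusted p = 0.0156), a count of 16 without Lactating replicate 3, and its share of counts was 2.06 ± 0.106% in post-weaning and 0.796 ± 0.0959% in pregnant libraries.

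In post-weaning against lactating mice the log2 fold change was negative for 9 of the 10 members, with a median of -0.61 beside 0.08 over all genes tested, and positive for Nfkbiz (0.05 ± 0.26, but -0.13 without Lactating replicate 3). With no scaling factor on the library totals Nfkbia turned positive as well (0.15, against -0.05 ± 0.19). Nfkb1 alone was called, lower, beside 0.466% of all genes, at 67.4 ± 22.6 CPM in post-weaning and 220.1 ± 67.9 CPM in lactating libraries (-1.71 ± 0.32). Post-weaning libraries lay below all lactating libraries for Nfkb1, Nfkb2, Relb, Nfkbib and Nfkbie, beside 8.76% of all genes. Without Lactating replicate 3 Rel was called lower too (-0.93), a count of 2 beside 0.968% of all genes. Without any one of Virgin replicate 3, Lactating replicates 1 and 2 and the pregnant and post-weaning libraries the Nfkb1 call was lost.

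The pathway genes that fell in post-weaning against lactating mice were Malt1, at 147 ± 16.2 CPM in post-weaning and 489.7 ± 148 CPM in lactating libraries (log2 fold change -1.73 ± 0.22, edgeR adjusted p = 0.00572, n = 3 each), and the chemokine genes Cxcl3 (-3.42 ± 0.45, adjusted p = 0.00572), Ccl5 (-2.78 ± 0.55, adjusted p = 0.0396) and Ccl4 (-2.30 ± 0.48, adjusted p = 0.0494). Their count of 4 stood beside 0.466% of all genes called lower. Without Lactating replicate 3 it was 15 of 80, of which 14 were lower, beside 0.968% of all genes. It was 2 without any one other library but Virgin replicate 2. Fos, the single immediate early gene called, was higher in post-weaning libraries (1.69 ± 0.22, adjusted p = 0.00572). Over all genes, 58 of 12672 were called higher. Leaving out Lactating replicate 3 gave 4 genes higher and 1 lower on that list. The count of all genes called higher in that fit is not given.

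In post-weaning against virgin mice the edgeR test called 0 of the 10, as it called 0% of all 12672 genes, where 765 genes had an unadjusted p under 0.05 and DESeq2 called 125 genes but none of the 10. The median log2 fold change was -0.09 over the members and 0.02 over all genes tested. Nfkbiz had the largest difference, at 757 ± 29.3 CPM in post-weaning and 1260 ± 345 CPM in virgin libraries (-0.73 ± 0.27), and was the sole member with an unadjusted p under 0.05. Post-weaning libraries lay below all virgin libraries for Nfkbiz and Rel, beside 6.55% of all genes. Of the 79 other pathway genes none was called by edgeR, 5 had an unadjusted p under 0.05, and DESeq2 called 1. These counts do not show that the post-weaning level equals the virgin level.

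**Figure D4:**
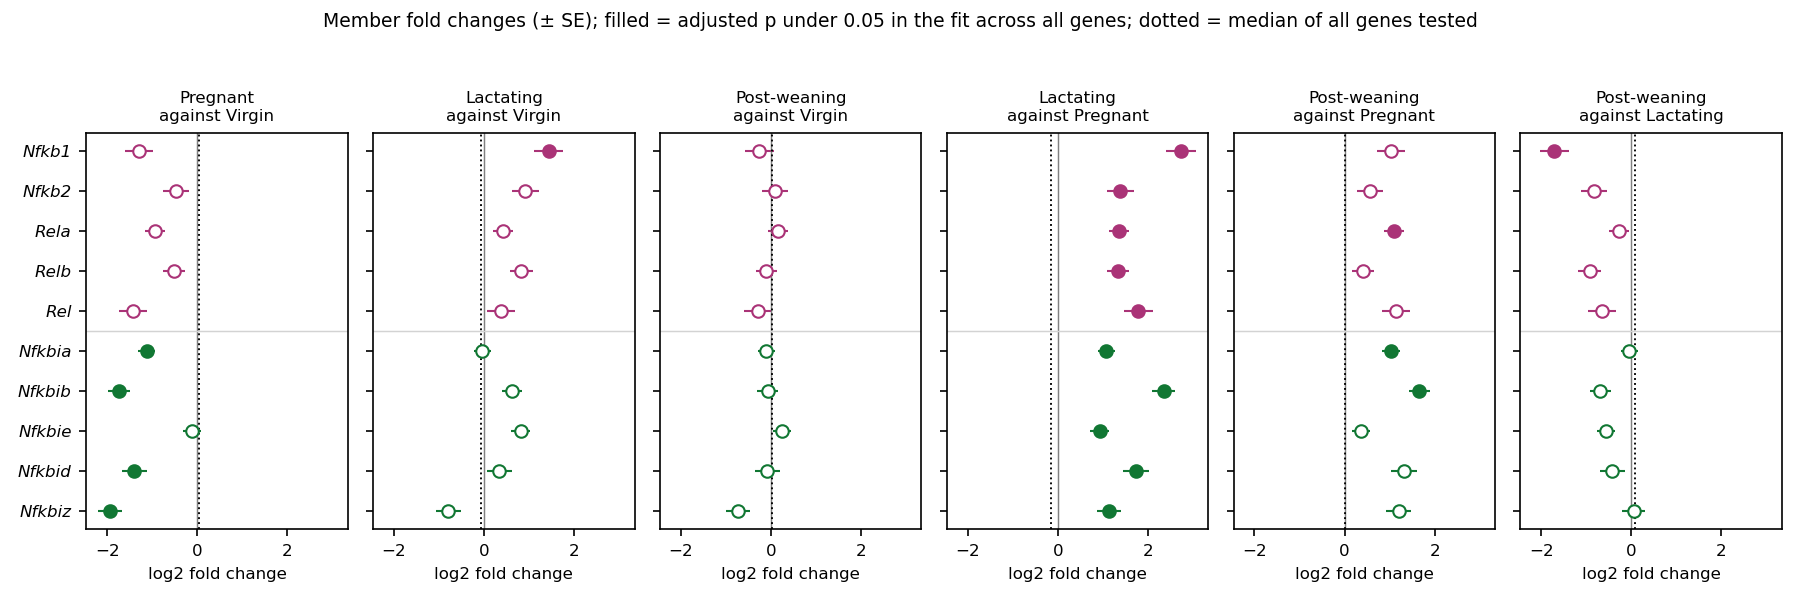
Log2 fold change with SE (x axis) of each member (y axis; subunits purple, inhibitors green) in the 6 pairwise comparisons; filled points have an edgeR adjusted p under 0.05 in the fit across all genes, and the dotted line is the median of all genes tested. All 10 points are filled in lactating against pregnant mice and none in post-weaning against virgin mice.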

How the data were processed

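RNA of freshly sorted duct macrophages was made into libraries with the SMART-Seq v4 low-input kit, per the labels' protocols. The kit carries no molecular identifiers, so PCR copies count as reads. The sources used here do not give the sorting gate, the aligner or the strand setting. The authors deposited raw counts per gene under Entrez identifiers, made with featureCounts on mm10 per the submitters' processing notes. The table of the whole series equals the 12 sample tables. Symbols, positions and promoters were taken from RefSeq tables of GRCm38.p6 (mm10), in which 25275 genes (93%) had a symbol, and positions are 1-based.

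Computed here: filterByExpr by stage kept 12672 genes, among them all 10 members and 79 of 83 other pathway genes. A robust quasi-likelihood fit in edgeR 4.0.16, run in R 4.3.3, took all 12 libraries together, with TMM scaling and a mean per stage, and gave a common biological coefficient of variation of 0.856. Adjusted p-values are Benjamini-Hochberg over all genes tested, and those under 0.05 were called. SE is the log2 fold change divided by the root of the test's F. CPM use TMM-scaled totals, and RPKM divide them by the deposited gene length. Members and lists were chosen with earlier results of these data known. Genes named are the 10 members, the 3 called genes with the smallest adjusted p per pathway list, immediate early list and comparison, and the 3 genes most correlated with each of the 3 members of widest range. The lists for T and NK cells, dendritic cells, ductal epithelium, endothelium and fibroblasts took at most 0.0121%, 0.0139%, 0.146%, 0.0167% and 0.0389% of the counts of a library. The procedure was run on simulated counts with known differences between pregnant and virgin libraries, and its result is not given. That simulation held no library like Lactating replicate 3, so it does not bear on calls that moved with that library. Alternatives were DESeq2 1.42.0, limma-voom (limma 3.58.1) with quality weights, RLE size factors, no low-count filter, a replicate block, fits to the 6 libraries compared, and each library left out.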

Additional observations from a re-analysis of the deposited data

How the results depend on the processing

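No called member value changed sign under any alternative, and of 1140 member fold changes under alternatives 26 moved by more than their SE. The counts of calls moved more, in the order pregnant against virgin, lactating against virgin, post-weaning against virgin, lactating against pregnant, post-weaning against pregnant, post-weaning against lactating. edgeR called 4, 1, 0, 10, 3 and 1 members and 6, 5, 0, 20, 5 and 4 pathway genes, among 167, 246, 0, 488, 91 and 117 genes in all. Leaving out 1 library gave 2 to 7, 0 to 1, 0 to 0, 5 to 10, 0 to 6 and 0 to 2 members, and 1 to 20, 2 to 15, 0 to 0, 15 to 33, 0 to 16 and 2 to 15 pathway genes. DESeq2 called 7, 4, 0, 10, 7 and 2 members and 20, 18, 1, 33, 18 and 12 pathway genes, among 656, 1173, 125, 1465, 502 and 919 genes in all. limma-voom called 6, 1, 0, 10, 6 and 2 members and 15, 13, 0, 35, 22 and 16 pathway genes, among 473, 246, 1, 998, 899 and 387 genes in all. Fits to the 6 libraries compared took the spread from those libraries alone. They called 5, 0, 0, 3, 6 and 0 members and 9, 0, 0, 7, 24 and 1 pathway genes, and the cause of the changes was not tested. Without the low-count filter the Nfkb1 call in lactating against virgin mice was lost (0 members). For any difference between stages, 8 members were called, 2 to 7 with 1 library left out. RLE size factors changed no count by over 1.5 times. Library totals with no scaling factor, an alternative chosen after seeing the data, moved the median of all genes to -0.28, -0.43 and 0.29 on the log2 scale in lactating against virgin, lactating against pregnant and post-weaning against lactating mice. All calls there split 92 higher and 208 lower, 206 and 362, and 92 and 32, against 132 and 114, 336 and 152, and 58 and 59 with TMM. The cause of these shifts was not tested.

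No sign of pairing by replicate number was seen, though such values cannot show that the libraries are unpaired. Deviations from the stage means correlated at -0.07 to 0.07 between libraries of the same number. Of the 12 libraries, 2 correlated best with their own number. With the number as a replicate block, edgeR called 3, 0, 0, 10, 1 and 0 members and 3, 3, 0, 19, 2 and 2 pathway genes, and 3 members for any difference between stages. The count over all genes is not given for this fit, the fits to 6 libraries, or most fits with 1 library left out. How far the member counts moved with the count over all genes was not tested.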

Other observations

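The genes whose levels ran closest to the other 7 members over the 12 libraries, found by the same measure and named after their values were seen are given here. Nfkbia was closest to Zfp36, a feedback regulator that destroys inflammatory transcripts (Pearson r = 0.985 on log2 CPM), then to Ppp1r15a (0.974) and Cdkn1a (0.973). Zfp36 and Ppp1r15a are on the immediate early and dissociation stress list. Nfkbid was closest to Lilrb4a (0.970), Cdkn1a (0.964) and Cd83 (0.959), and Rel to Tnfrsf12a (0.962), Cd83 (0.961) and C3ar1 (0.959). Relb shared its closest gene, Dot1l (0.961), with Nfkb1. Nfkbie was closest to Got1 (0.971), Nfkb2 to Rhbdf2 (0.939) and Rela to Fblim1 (0.943). Without Lactating replicate 3 the correlations named here were between 0.928 and 0.990. They rest on 12 libraries that share stage differences and depth.

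The NF-kB target genes tracked Rel most closely: their mean log2 CPM correlated with Rel at r = 0.96 and with Nfkbid at 0.91, and least with Nfkbie at 0.44 (n = 12 libraries, 27 target genes). Without Lactating replicate 3 the value of Rel was again 0.96, but those of Nfkb1 and Nfkbib rose from 0.83 and 0.87 to 0.94. That of Nfkbie was then 0.77, and the lowest was that of Nfkbiz, 0.69. The mean of the target genes was 8.97 and 8.76 in Lactating replicates 1 and 2, the highest of all libraries, and 7.16 in Lactating replicate 3, which lay below every virgin and post-weaning library, as Rel did. That library had the highest share of milk genes and the lowest share of macrophage markers. The part of either in these levels was not tested.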
